A study of Mus musculus with 8 samples.

Results

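The transcripts described here are those of 38 genes of protein folding and quality control in the endoplasmic reticulum (ER): chaperones, disulfide isomerases, degradation factors and the sensors of the unfolded protein response. They were chosen by name with earlier results of these data known, and 36 of the 38 were measured, among 17097 genes in all. Fkbp10 was not analysed here, and the probe sets of Fkbp14 carried more than 1 gene symbol and were not used. Where several probe sets measured a gene, the brightest on average was used. Dermal fibroblasts were sorted from the skin of 4 old mice (18 months) and 4 young mice (2 months), and each animal's RNA was amplified and hybridised to an array of its own. The gate took cells that carried Pdgfra and CD34 and lacked CD45, CD117, CD24, CD31 and EpCam. The strain and sex of the mice are not given in the sources used here, and no allele, agent or transgene is named for either age. The comparison asks how transcript levels of dermal fibroblasts differ with age, and all values are log2 levels normalized by the authors.

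Proteins bound for secretion fold inside the ER, where chaperones hold them, lectin chaperones read their sugars, and disulfide isomerases make and reshuffle their cysteine bonds. Collagen, the main product of dermal fibroblasts, also needs dedicated chaperones and prolyl isomerases. When unfolded proteins build up, the sensors IRE1 (encoded by Ern1), PERK (Eif2ak3) and ATF6 slow translation and raise the transcripts of chaperones and of factors that pull misfolded proteins back to the cytosol for degradation. Xbp1 encodes the factor made active when IRE1 splices its messenger RNA.

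Array medians lay between 5.19 and 5.34 in old and between 5.23 and 5.24 in young. Fibroblast markers were high on every array, but their means did not overlap between ages (10.97 to 11.06 in old and 11.11 to 11.25 in young). Of the 9, 7 had differences below 0. Col3a1 was the 1 called lower, and 4 were lower at an unadjusted limma p under 0.05. An index of non-specific hybridisation, the mean of 13 control probe sets rich in G and C, did not overlap between ages (4.87 to 5.32 in old, 5.44 to 5.68 in young). Old minus young, this index differed by -0.445, and the mean of the control probe sets poorer in G and C by -0.006. Keratinocyte markers had means of 7.63 to 8.69 in old and 6.77 to 7.99 in young, with 4 of 11 measured called higher and 1 lower. Of all genes, 9.87% were called higher and 7.66% lower. B and plasma cell markers, of a cell type rich in ER, had means of 4.65 to 4.83 in old and 4.60 to 4.73 in young, and 0 of 7 were called (limma, adjusted p; 0 at an unadjusted p under 0.05). Macrophage and dendritic markers had 2 higher and 1 lower of 9, endothelial markers 1 of each of 8, and pericyte, muscle, melanocyte and Schwann cell markers 1 lower of 8. T, NK and mast cell markers (7) and adipocyte markers (4) had no call, with means of 3.99 to 4.69 in old and 3.92 to 4.57 in young. Young replicate 1 stood apart in the spiked bioB control (9.93, against 6.83 to 7.40 on the other 7 arrays). The part of these differences in the results below was not tested, except where values with the index as a covariate or without an array are given. In sorted bulk cells, fewer cells of a kind and less RNA per cell cannot be told apart.

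Several disulfide isomerases, the collagen chaperones and part of the degradation machinery were lower in old fibroblasts. None of the 13 chaperones was called, which with so few genes is near the shares of all genes called. By limma with Benjamini-Hochberg adjustment over all genes, at adjusted p under 0.05, 11 of the 36 measured genes were called lower in old, where 7.66% of all genes tested were. None was called higher, where 9.87% of all genes were (0 also at an unadjusted p under 0.05, and 1 with the most variable probe set of each gene). Differences, old minus young, ran from -1.29 to 0.29 with a median of -0.21, against a median of 0.01 over all genes, and 31 of 36 lay below 0. In 15 of the 36 genes all old values lay below all young values, a pattern of 9.66% of all genes. In none did all old values lie above, a pattern of 11.7% of all genes. The count of lower genes was 7 without young replicate 3, and 0 with the background index as a covariate, where the median was -0.32. That covariate left 102 lower and 73 higher genes in the whole table, against 1310 and 1688 without it. The covariate also narrowed the contrast of the Hsp70 system with the isomerases and of both chaperone classes with the collagen chaperones. It did not narrow that of the other chaperones with the isomerases. The median of the Hsp70 system was -0.23 with the covariate (-0.01 without), and that of the other chaperones -0.24 (-0.11 without). For the isomerases it was -0.45 (-0.31 without) and for the collagen chaperones -0.46 (-0.48 without), with no call in any of them. Another quantile normalization turned the split of all genes to 1716 lower and 1415 higher, and called 16 of the 36 genes lower and none higher.

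**Figure D1:**
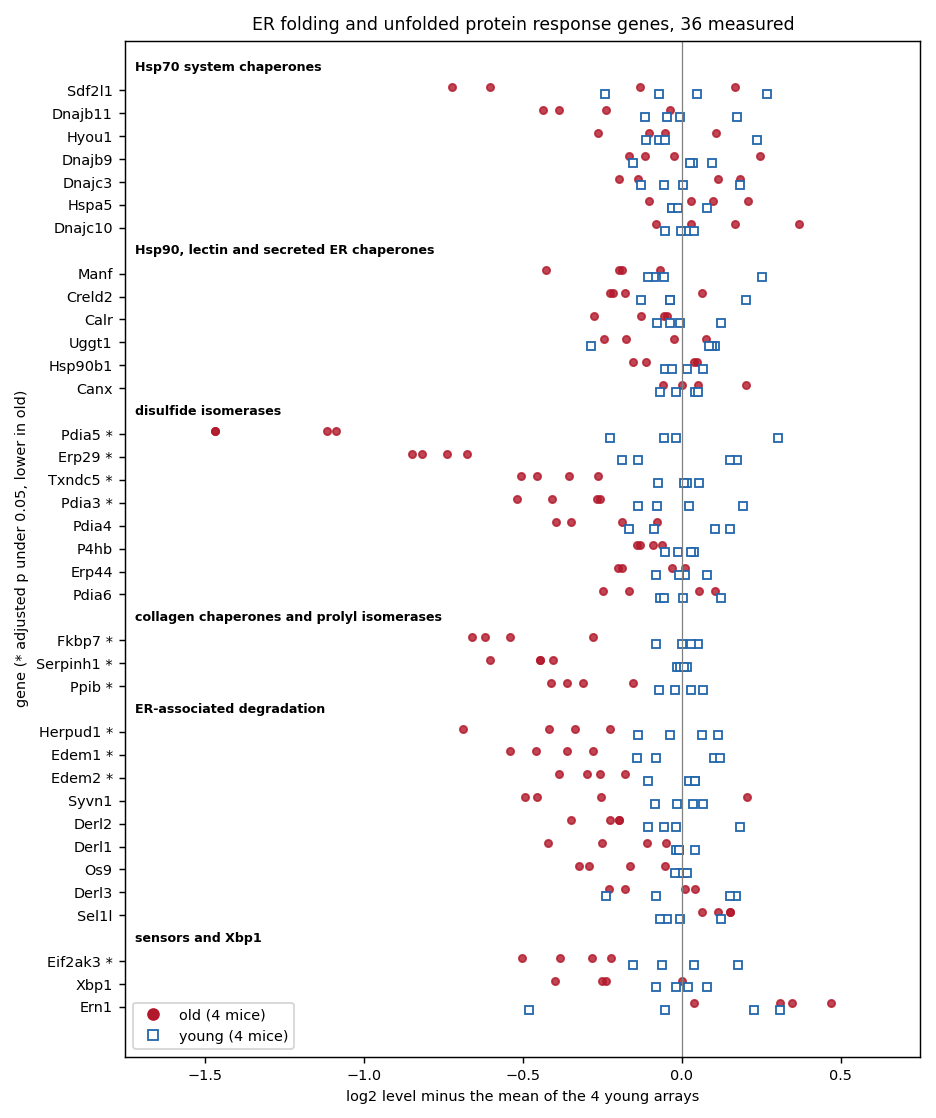
Log2 level of each of the 36 measured genes on every array, set against the mean of the 4 young arrays (horizontal axis), with genes grouped by role; red points are old arrays and open blue squares young ones, and asterisks mark the 11 genes called lower in old. The old points of Pdia5 and Erp29 lie farthest from the young ones, and those of Hspa5, Dnajb9 and Dnajc3 lie among them.

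Of the 7 chaperones of the Hsp70 system, 0 were called (limma; 1 lower at an unadjusted p under 0.05), with a median difference of -0.01. With so few genes, 0 is near the shares of all genes called (7.66% lower, 9.87% higher). Hspa5 encodes BiP, the Hsp70 of the ER and the classical readout of the unfolded protein response. Its level was 11.97, 11.77, 11.90 and 12.08 in the old replicates 1 to 4, against 11.84, 11.95, 11.84 and 11.86 in the young ones. The young values lay inside the old range. The difference was 0.06 (95% interval -0.11 to 0.22, adjusted p = 0.671). Dnajb9, a BiP co-chaperone of the DnaJ family that restrains IRE1, differed by -0.02 (-0.23 to 0.20, adjusted p = 0.942). Dnajc3, a co-chaperone also known as an inhibitor of PERK, differed by -0.01 (-0.24 to 0.22, adjusted p = 0.963). Hyou1, a large Hsp70 relative that exchanges nucleotide on BiP, differed by -0.08 (-0.30 to 0.15), and Dnajc10, a co-chaperone that also reduces disulfides, by 0.12 (-0.09 to 0.33). With the background covariate all 7 differences lay below 0 and moved by over 1.5 times or changed sign, and Dnajc3 reached -0.40 (adjusted p = 0.278) and Hspa5 -0.03 (adjusted p = 0.969).

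The other 2 members of that system had the lowest differences of the class, without a call. Dnajb11, a BiP co-chaperone, averaged 9.43 ± 0.18 in old and 9.71 ± 0.12 in young (SD, n = 4 each; difference -0.28, adjusted p = 0.088), and 3 of 4 old values lay below all young ones. It was called when the table was quantile normalized again, with array weights and without old replicate 4. Sdf2l1, a partner of Dnajb11 complexes, had the widest spread of the 36 genes among old animals (SD 0.41), at 8.94, 8.35, 8.47 and 9.24 in old and between 8.83 and 9.34 in young. Old replicates 2 and 3 were low, and old replicates 1 and 4 lay within the young range. The difference was -0.32 (95% interval -0.74 to 0.10, adjusted p = 0.292).

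Among the 6 remaining chaperones 0 were called (limma; 0 at an unadjusted p under 0.05), and the median difference was -0.11. Here too 0 is near the shares of all genes called (7.66% lower, 9.87% higher). Hsp90b1 encodes GRP94, the Hsp90 of the ER. It measured 12.17, 11.97, 12.01 and 12.16 in old, against 12.07, 12.19, 12.14 and 12.09 in young, so the ages overlapped (difference -0.05, 95% interval -0.20 to 0.11). The lectin chaperones calreticulin (Calr) and calnexin (Canx), which bind newly made glycoproteins, differed by -0.13 (-0.29 to 0.04) and 0.05 (-0.11 to 0.20). Uggt1, which marks unfinished glycoproteins for another round with them, differed by -0.09 (-0.33 to 0.14). Creld2 and Manf, small ER proteins that are known to rise under ER stress and can be secreted, differed by -0.14 (-0.35 to 0.07) and -0.22 (-0.45 to 0.01). For Manf 3 of 4 old values lay below all young ones, and without young replicate 2 it differed by -0.14. Without young replicate 1 Uggt1 differed by -0.19, and with the background covariate by -0.47 (adjusted p = 0.263). Hsp90b1 lay within about 1 unit of the highest value on the arrays (13.04).

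All 8 genes grouped as disulfide isomerases, with the isomerase-like Erp29 among them, had differences below 0. Of these, 4 were called lower, where 7.66% of all genes were. Pdia5, a member of the protein disulfide isomerase family, changed most of all 36 genes. Its level was 6.40, 6.05, 6.43 and 6.05 in old, against 7.29, 7.50, 7.82 and 7.46 in young. Every old array lay well below every young one. The mean was 6.23 ± 0.21 in old and 7.52 ± 0.22 in young (SD, n = 4 each). The log2 difference was -1.29 ± 0.13 (SE), which is 0.41 times the young level (adjusted p = 1.99e-04). Without any 1 array the difference lay between -1.36 and -1.18 and was called. With the background covariate it was -1.33 (adjusted p = 0.065).

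Erp29, an ER protein with a thioredoxin fold that lacks the active cysteine pair and aids secretion, came next. It measured 8.44, 8.41, 8.52 and 8.58 in old, against 9.07, 9.43, 9.41 and 9.12 in young. The groups stood apart, and the old arrays lay close together (SD 0.08, against 0.19 in young). The difference was -0.77 ± 0.09 (SE; 0.59 times the young level, adjusted p = 5.69e-04). Txndc5, an isomerase with thioredoxin domains known for a role in collagen folding in fibroblasts, measured 10.44, 10.20, 10.35 and 10.25 in old, against 10.63, 10.76, 10.72 and 10.71 in young. Again the groups did not overlap (difference -0.40 ± 0.07, SE; adjusted p = 0.0038).

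Pdia3, the partner of calreticulin and calnexin, had 6.60, 6.34, 6.59 and 6.45 in old, against 6.78, 7.05, 6.88 and 6.72 in young. The highest old and the lowest young value were near each other, and the call (difference -0.36, adjusted p = 0.0206) was lost without any of old replicates 2 and 4 or young replicates 2 and 3 (adjusted p up to 0.0564). The Pdia3 value rests on 1 probe set, which was dim (mean 6.50 in old and 6.86 in young). Its partners Calr (11.70 and 11.83) and Canx (11.42 and 11.37) read far higher. Whether this probe set follows the main Pdia3 transcript was not tested. Not called were P4hb, the founding isomerase and the subunit that keeps collagen prolyl 4-hydroxylase soluble, Pdia4, Pdia6 and Erp44, which retains client proteins between ER and Golgi. P4hb differed by -0.11 (95% interval -0.23 to 0.02), with all old values (11.79 to 11.87) below all young values (11.88 to 11.97). Pdia4 differed by -0.25 (adjusted p = 0.108), Erp44 by -0.10 (adjusted p = 0.38) and Pdia6 by -0.07 (adjusted p = 0.694).

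The 3 measured collagen chaperones and prolyl isomerases, of 5 listed, were called lower, each with no overlap between ages. Of all genes, 7.66% were called lower, and in 9.66% all old values lay below all young ones. Serpinh1 encodes HSP47, the collagen-specific chaperone that binds the procollagen triple helix. Its level was 11.54, 11.70, 11.74 and 11.70 in old, against 12.13, 12.16, 12.14 and 12.15 in young. The SD was 0.09 in old and 0.01 in young, where the arrays were nearly alike. The young values, like those of Hsp90b1, lay within about 1 unit of the highest value on the arrays (13.04). The difference was -0.48 ± 0.06 (SE; 0.72 times the young level, adjusted p = 7.68e-04), and it stayed between -0.50 and -0.43 without any 1 array. With the background covariate the Serpinh1 difference was -0.35 (adjusted p = 0.234).

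Fkbp7, a prolyl isomerase of the ER lumen, measured 11.07, 10.69, 10.73 and 10.81 in old, against 11.35, 11.27, 11.40 and 11.38 in young. Old replicate 1 was nearest to the young arrays. The difference was -0.53 ± 0.09 (SE; 0.70 times the young level, adjusted p = 0.00277), and with the background covariate it was -0.74 (adjusted p = 0.0731). Ppib encodes cyclophilin B, a prolyl isomerase that works in the collagen prolyl 3-hydroxylation complex. It had 10.97, 10.71, 10.81 and 10.76 in old, against 11.05, 11.19, 11.15 and 11.10 in young (difference -0.31 ± 0.07, SE; adjusted p = 0.0147).

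**Figure D2:**
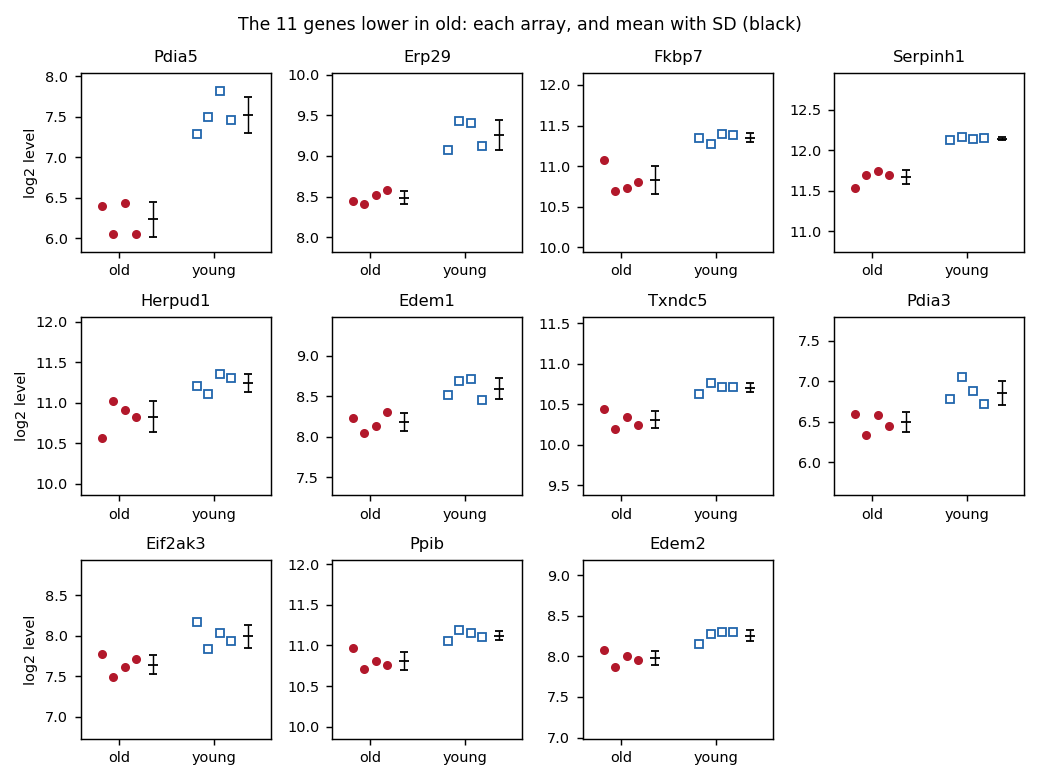
Log2 level (vertical axis, the same span in every panel) of the 11 genes called lower in old, ordered by size of difference; red points are the 4 old arrays, open blue squares the 4 young arrays, and black marks the group mean with SD. In each panel every old point lies below every young point, with the widest gap for Pdia5.

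Of 9 degradation factors, 3 were called lower, where 7.66% of all genes were. All differences but 1 lay below 0. In 6 the old values all lay below the young ones, a pattern of 9.66% of all genes. Herpud1, a membrane protein that organises the degradation complex and is strongly induced by ER stress, measured 10.56, 11.02, 10.91 and 10.83 in old, against 11.21, 11.11, 11.36 and 11.31 in young. Old replicate 1 was the lowest, and old replicate 2 came near to young replicate 2. The difference was -0.42 ± 0.10 (SE, adjusted p = 0.0189). It was not called without young replicate 3 or 4 (adjusted p up to 0.0568), and the background covariate brought it to -0.19 (adjusted p = 0.807). The second probe set of Herpud1 differed by -0.21, and there old replicate 1 was the highest old array (9.36) and lay above young replicate 2 (9.27), so the ages overlapped.

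Edem1 and Edem2 encode mannosidase-like proteins that mark misfolded glycoproteins for removal. Edem1 had 8.23, 8.05, 8.13 and 8.31 in old, against 8.51, 8.69, 8.71 and 8.45 in young (difference -0.41 ± 0.08, SE; adjusted p = 0.0086). The second probe set of Edem1 differed by -0.02, and the call was lost with the mean of the 2 probe sets. Edem2 had 8.08, 7.87, 8.00 and 7.96 in old, against 8.15, 8.28, 8.30 and 8.30 in young (difference -0.28 ± 0.07, SE; adjusted p = 0.018). Its call was lost without old replicate 2 or young replicate 3 or 4 (adjusted p up to 0.0542).

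The retrotranslocation proteins Derl1 and Derl2 and the lectin Os9, which hands glycoproteins to the ubiquitin ligase complex, showed no overlap between ages but were not called. Derl2 had 9.57 to 9.72 in old and 9.81 to 10.10 in young (difference -0.24, adjusted p = 0.0546), and 6 of the 17 alternative settings called it. Derl1 differed by -0.21 (adjusted p = 0.12) and was called lower under 4 of those settings, and Os9 by -0.21 (adjusted p = 0.0725) and under 5. The ligase itself, Syvn1 (HRD1), measured 9.39, 8.73, 8.93 and 8.69 in old, against 9.22, 9.17, 9.25 and 9.10 in young. Old replicate 1 was the highest of the 8 arrays and the other 3 old arrays the lowest. Syvn1 differed by -0.25 (adjusted p = 0.26), and without old replicate 1 by -0.40 (adjusted p = 0.00809). Sel1l, the partner that holds the Syvn1 complex together, was the one factor with a positive difference (0.12, 95% interval -0.02 to 0.26, adjusted p = 0.238). Derl3, a relative of Derl1 known from secretory cells, differed by -0.09 (adjusted p = 0.635) at a level of 5.04 in old and 5.13 in young.

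Of the sensors on the list, Eif2ak3 was called lower and Ern1 was not called. Eif2ak3, which encodes PERK, the kinase that phosphorylates eIF2alpha, measured 7.77, 7.49, 7.61 and 7.71 in old, against 8.17, 7.84, 8.03 and 7.93 in young. The groups did not overlap, but old replicate 1 and young replicate 2 came close to each other. The difference was -0.35 ± 0.09 (SE, adjusted p = 0.0237), and the call was lost without old replicate 2 or 3 or young replicate 1 or 3 (adjusted p up to 0.0636). The other 2 probe sets of Eif2ak3 differed by -0.67 and -0.33. Ern1 measured 8.18, 8.61, 8.45 and 8.49 in old, against 7.66, 8.09, 8.45 and 8.37 in young. Young replicate 1 was the lowest, and 2 of 4 old values lay above all young ones. The difference was 0.29 (95% interval -0.08 to 0.66, adjusted p = 0.275), the highest of the 36 genes, and without young replicate 1 it was 0.13 (adjusted p = 0.556). The second brightest probe set of Ern1 also differed by 0.29. There all old values (7.62 to 7.87) lay above all young ones (7.32 to 7.53), while the 5 probe sets ran from -0.15 to 0.29. Xbp1 had 10.44, 10.04, 10.19 and 10.20 in old, against 10.52, 10.46, 10.42 and 10.36 in young. Old replicate 1 lay within the young range and the other 3 below it. The difference was -0.22 (adjusted p = 0.111), and it was called without old replicate 1 (-0.30, adjusted p = 0.0202) and with array weights. The spliced and unspliced forms of Xbp1 were not told apart here.

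Averaged over a role, the array scores (mean deviation of its genes from their own means over the 8 arrays) separated the ages for isomerases, collagen chaperones and degradation factors, but not for the chaperones. The Hsp70 system scored 0.05, -0.24, -0.14 and 0.18 in the old replicates 1 to 4, against -0.05, 0.18, 0.03 and -0.02 in the young ones. Old replicate 4 scored close to young replicate 2, and old replicate 2 was the lowest array. Disulfide isomerases scored between -0.33 and -0.12 in old and between 0.09 and 0.31 in young. Collagen chaperones scored between -0.29 and -0.13 in old and between 0.19 and 0.24 in young. Animals of 1 age also differed across many genes at once. Old replicate 2 held the lowest old value, ties included, of 27 of the 36 genes, and young replicate 2 held the highest young value of 23. Without old replicate 2 the median difference was -0.16 and 8 genes were called lower. Of the old arrays, replicate 1 had the lowest keratinocyte marker mean (7.63) and the highest score of the 11 lower genes (-0.20, against -0.34 to -0.22 in the other 3). Of the young arrays, replicate 3 had the highest marker mean (7.99) and also the highest score (0.33, against 0.19 to 0.28). Other arrays followed no single order. Old replicate 2 had a marker mean of 7.91 and the lowest score (-0.34), and old replicate 4 the highest old marker mean (8.69) and a score of -0.26. Young replicate 2 had the lowest marker mean (6.77) and a score of 0.28. The part of keratinocyte RNA in the scores was not tested.

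**Figure D3:**
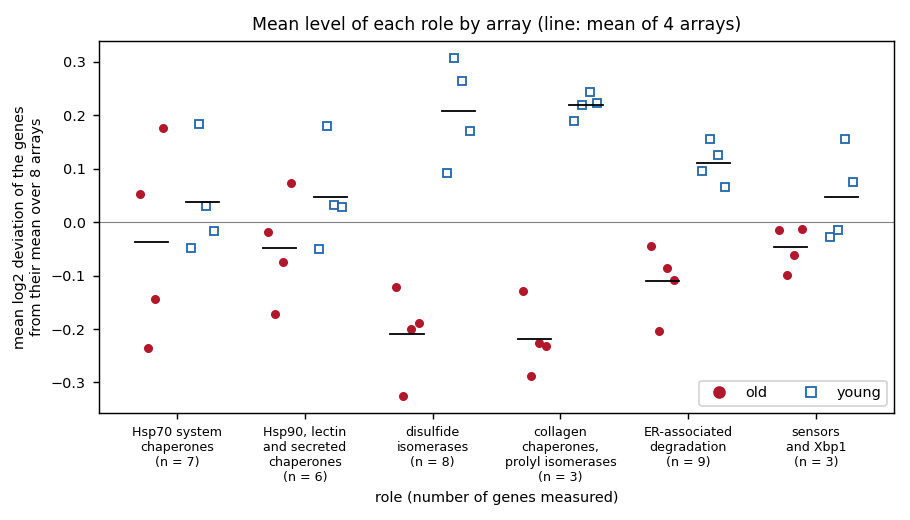
Mean log2 deviation of the genes of each role from their own means over the 8 arrays (vertical axis), by array; red points are old and open blue squares young arrays, and lines are group means. The ages overlap for both chaperone classes and for the sensors with Xbp1, and stand apart for the isomerases, the collagen chaperones and the degradation factors.

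The promoters of many ER chaperone genes carry the ER stress response element, a known binding site of the general factor NF-Y with ATF6 or XBP1. It was searched as CCAAT, any 9 bases and CCACG on both strands of the 250 bases before each gene's start, in RefSeq sequence of build GRCm38.p6. An exact match stood in 37 of 32851 such windows (0.113%) and in 9 of the 33 listed genes that matched a window. Erp29, Hyou1, Derl1, Manf and Fkbp10 did not match one. The elements are shown because the element is a known control sequence of ER chaperone genes. Capitals mark the letters searched, and each is written in the direction of the motif.
Hspa5: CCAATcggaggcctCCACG
Hsp90b1, distal: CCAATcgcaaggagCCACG
Hsp90b1, proximal: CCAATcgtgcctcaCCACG
Calr: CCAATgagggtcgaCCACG
Canx: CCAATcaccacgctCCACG
Pdia6: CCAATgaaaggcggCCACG
Dnajc3: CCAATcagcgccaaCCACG
Creld2: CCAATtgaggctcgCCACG
Derl3: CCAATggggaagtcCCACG
Syvn1: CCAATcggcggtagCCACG
The Hspa5 element lay at chr2:34772025-34772043 (plus strand), from 65 to 47 bases before the start, and that of Pdia6 at chr12:17266491-17266509 (plus), from 98 to 80 bases before it. Those of Hsp90b1 lay at chr10:86705638-86705656 (minus) and chr10:86705533-86705551 (plus), and those of Calr and Canx at chr8:84847075-84847093 (plus) and chr11:50325800-50325818 (minus). Dnajc3 held its element at chr14:118937827-118937845 (plus), Creld2 at chr15:88819520-88819538 (minus), Derl3 at chr10:75893242-75893260 (minus) and Syvn1 at chr19:6046532-6046550 (plus), from 44 to 26 bases before the start.

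Of these 9 genes 0 were called (limma; 0 at an unadjusted p under 0.05), which with so few genes is near the shares of all genes called (7.66% lower, 9.87% higher). Their differences ran from -0.25 (Syvn1) to 0.06 (Hspa5), with a median of -0.07, and in none of them did the ages stand apart. With the background covariate they ran from -0.49 to 0.18 with a median of -0.24, and all 9 moved by over 1.5 times or changed sign. Syvn1 was called lower without old replicate 1. Of the 23 measured genes with a window and no exact match, 10 were called lower, with a median of -0.28 (-0.35 with the covariate, and no call). In 13 of them all old values lay below all young ones, a pattern of 9.66% of all genes. The difference between these sets was not tested, and the search was chosen after the values were known. Among all genes with a window, 35 held an exact match, 19 of them were measured, and 0 were called lower and 1 higher, also near the shares of all genes. That gene, Adcy3 (0.28), and Ero1b (0.24, adjusted p = 0.245), an ER oxidase, were among the 10 measured genes outside the list, and both are named after their values were seen.

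Looser parts of the element were common. A CCAAT box alone stood in 24 of the 33 genes and in 37.5% of all 27025 genes with a window, and CCACG alone in 23 of 33 and in 31.0% of all genes, each on either strand and the matches of the full element included. The related element ERSE-II, searched as ATTGG, any 1 base and CCACG, was found in 1 listed gene, Herpud1, and in 10 windows in all. Its first letters are a CCAAT box read on the other strand, so it is counted there too. TGACGTG, the core of the XBP1-bound UPRE, stood in Hspa5 and Txndc5 and in 1.85% of all genes. No match says only that these letters are not in the window.

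The windows of Hspa5, Herpud1 and Pdia5 are printed to set a chaperone with the full element beside the ER stress gene with ERSE-II and the gene with the largest decrease. Capitals mark the fixed letters of the element in Hspa5 and the whole ERSE-II in Herpud1, which lies from 52 to 42 bases before the start. The sequences are chr2:34771840-34772089 (plus), chr8:94386179-94386428 (plus) and chr16:35490874-35491123 (minus), each read toward the gene.
Hspa5: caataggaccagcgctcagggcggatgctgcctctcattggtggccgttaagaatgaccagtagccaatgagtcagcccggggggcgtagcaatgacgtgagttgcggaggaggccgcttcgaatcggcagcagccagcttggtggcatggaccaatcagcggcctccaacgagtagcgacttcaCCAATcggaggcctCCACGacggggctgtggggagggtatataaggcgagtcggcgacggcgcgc
Herpud1: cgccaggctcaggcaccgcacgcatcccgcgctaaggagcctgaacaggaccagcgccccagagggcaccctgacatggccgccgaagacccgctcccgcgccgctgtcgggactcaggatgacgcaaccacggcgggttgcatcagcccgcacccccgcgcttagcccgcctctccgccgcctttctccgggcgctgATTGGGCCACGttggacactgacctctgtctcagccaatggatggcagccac
Pdia5: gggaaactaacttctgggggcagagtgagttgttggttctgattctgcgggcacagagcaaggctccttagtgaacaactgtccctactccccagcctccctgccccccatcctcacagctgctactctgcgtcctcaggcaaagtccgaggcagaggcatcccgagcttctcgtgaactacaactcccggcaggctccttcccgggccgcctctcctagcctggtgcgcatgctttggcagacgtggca
The Pdia5 window held none of the full elements searched and no CCAAT, and 1 CCACG. Hspa5 differed by 0.06, Herpud1 by -0.42 and Pdia5 by -1.29 between old and young. These genes were chosen with the values known, and a link between element and difference was not tested. Syvn1, with the full element, differed by -0.25. Of the 23 measured genes with a window and no exact match, 20 had negative differences and 3 positive ones (Sel1l 0.12, Dnajc10 0.12 and Ern1 0.29).

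**Figure D4:**
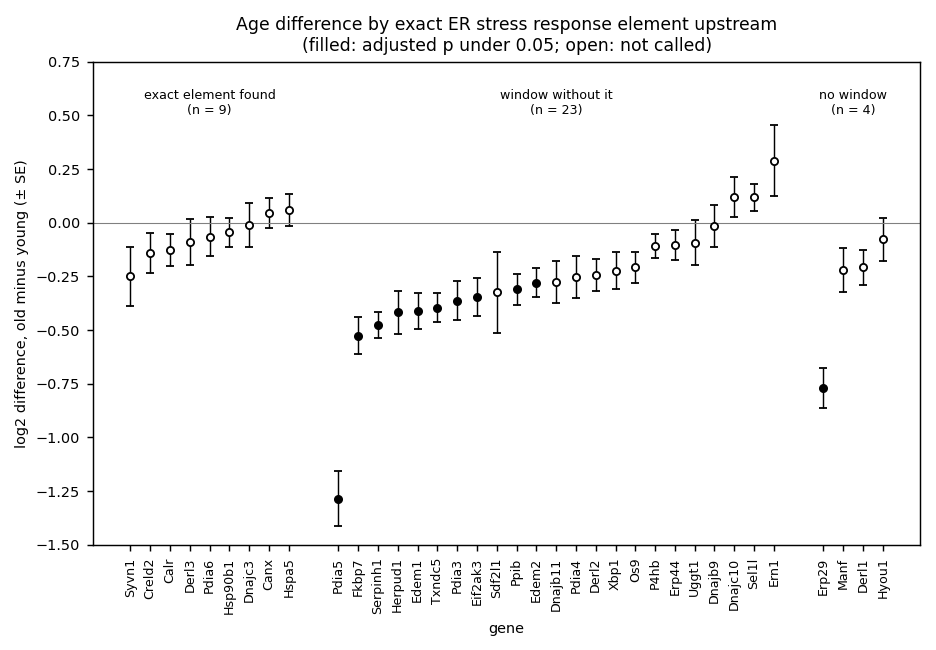
Log2 difference, old minus young, with SE (vertical axis) for each of the 36 genes, split by whether an exact ER stress response element was found upstream; filled points were called lower and open points were not called. The 9 genes with the element lie between -0.25 and 0.06, and the 23 with a window and no match reach -1.29.

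Probe sets of 1 gene could disagree. Among the 22 measured genes with more than 1 probe set, the differences had 1 direction in 16 and both in 6. Serpinh1 (-0.48 and -0.57), Txndc5 (-0.40 and -0.42) and the 4 probe sets of Xbp1 (-0.23 to -0.17) were close. For Derl1 the sets other than the one used had larger differences (-0.56 and -0.30), and Derl1 was called lower with the most variable one. For Dnajc10 the most variable probe set rose, at 9.51, 9.06, 9.27 and 9.39 in old, against 8.95, 8.89, 8.85 and 8.85 in young (difference 0.42, adjusted p = 0.0124), and was the one higher call under any setting. The 5 probe sets of Ern1 ran from -0.15 to 0.29, with the brighter ones positive. The 2 probe sets of Hspa5 differed by 0.06 and -0.04.

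**Figure D5:**
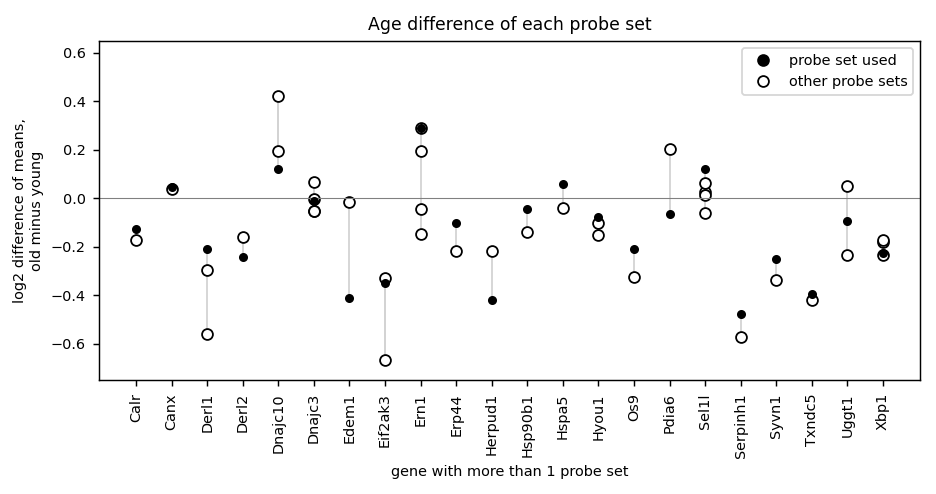
Difference of group means, old minus young, on the log2 scale (vertical axis) for every probe set of the 22 genes with more than 1; filled points are the probe sets used for the gene and open points the others. The probe sets of Edem1, Derl1, Dnajc10, Ern1 and Eif2ak3 spread most.

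Other genes of the pathway gave a mixed picture. Of 29 further measured genes of ER folding and oxidation 12 were called lower and 4 higher, with a median of -0.21. These are 41.4% and 13.8% of the list, against 7.66% and 9.87% of all genes. Fkbp11, an ER prolyl isomerase known as an XBP1 target, averaged 6.76 ± 0.49 in old and 8.77 ± 0.26 in young (SD, n = 4 each), a difference of -2.02 ± 0.22 (SE, adjusted p = 3.08e-04). P3h1, the collagen prolyl 3-hydroxylase that works with Ppib, differed by -0.88, and Ppic, a cyclophilin, by -0.71. The 4 higher genes were Tmx4 (0.73), Tmx3 (0.52) and Tmx2 (0.29), of the membrane-bound thioredoxin-related proteins, and Sec63 (0.33), a membrane partner of BiP at the translocon. Of these Tmx4 follows the rule for named genes, and the other 3 are named after their values were seen.

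Of 12 factors, proteases and feedback genes of the response, 1 was called higher, Mbtps2 (0.44), a protease that cleaves ATF6, and 1 lower, Atf6b (-0.40), an ATF6 relative. The sensor gene Atf6 itself, among these 12, was not called (difference 0.25, limma adjusted p = 0.123). All its old values lay above all young ones, a pattern of 11.7% of all genes. It is named after its values were seen. Of 19 further degradation genes 3 were called lower and 2 higher, among them Ngly1 (0.45), which strips sugars from retrotranslocated proteins, Erlec1 (-0.42), a lectin related to Os9, Ufd1 (0.30), a cofactor that extracts ubiquitinated proteins, and Ube2g2 (-0.26), a ubiquitin-conjugating enzyme. The heat shock chaperones of the cytosol had 1 higher and 1 lower of 15 measured, Hspb8 (0.23) and the small heat shock protein Cryab (-0.46), with a median of 0.04. Mitochondrial chaperones had 2 higher of 8 measured, the Hsp70 Hspa9 (0.46) and the Hsp90 Trap1 (0.29). Of all genes, 7.66% were called lower and 9.87% higher. The 12 response genes (8.33% each way) and the cytosolic chaperones (6.67% each way) lay near these shares. The further degradation genes had 15.8% lower and 10.5% higher, and the mitochondrial chaperones 25% higher, from few genes. Dissociation stress genes had a mean between 11.67 and 11.71 in old and between 11.53 and 11.78 in young, and 1 of 13 was called, lower.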

How the data were processed

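Fibroblasts sorted from the skin of 4 old and 4 young mice were profiled on 1 array each. The authors deposited log2 probe set values made with RMA and the R package affy, per the submitters' processing notes; versions are not given in the sources used here. RMA corrects background, makes array distributions alike and summarises the probes of a set, which can hide a shift shared by most transcripts. Per the labels' protocols, 6 ng of RNA was amplified for 18 cycles. Of 45141 probe sets, 28898 had 1 symbol in the platform annotation, 551 several and 15692 none; 28689 matched a gene ID in a RefSeq table of GRCm38.p6, used for names. Of the probe sets of a gene, the one of highest mean was kept, which gave 17097 genes. Differences were fitted with age as the one term in limma (lmFit and eBayes; version 3.58.1, R 4.3.3). Its 2-sided p-values were adjusted by the Benjamini-Hochberg method across every gene, with calls at 0.05, and the fit was tested on simulated data. There it called 55% of simulated log2 changes of 0.5 and 95% of changes of 1. Only 200 of 17097 genes were changed in the simulation, fewer than were called in these data, and noise was independent between genes. These percentages therefore need not hold for the real arrays. Intervals are at 95%. Gene lists and members were chosen with earlier results of these data known, so no list was tested. All members are named, and of each further list up to 4 called genes of largest change. No replicate block was used. The promoter search was added after seeing the values. Nothing states whether other differences than age, such as handling, went with the groups, and the number of arrays limits the precision. Plots were made in Python 3.11.15 (matplotlib 3.10.9).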

Additional observations from a re-analysis of the deposited data

Results flagged for a closer look

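Among 72 groups of 4 arrays (36 genes at 2 ages), 4 held an array far from the other 3 by Dixon's criterion. Chance marks about 1 group in 20. Uggt1 was low in young replicate 1 (8.29, against 8.66 to 8.68), and so was Edem2 (8.15, against 8.28 to 8.30). Manf was high in young replicate 2 (11.77, against 11.41 to 11.46), and Derl1 in young replicate 3 (10.42, against 10.36 to 10.37). Without the array named, the difference was -0.19 for Uggt1 (-0.09 with it), -0.32 for Edem2 (-0.28), -0.14 for Manf (-0.22) and -0.19 for Derl1 (-0.21). Young replicate 1 also held the lowest young value of 21 of the 36 genes, ties included, and the highest bioB spike (9.93). Without replicate 1, 10 genes were called lower, against 11 with it.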

How the results depend on the processing

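The fit was repeated under 17 other settings and at 2 other thresholds. The count of lower genes, 11, was 17 with array weights, 6 at a threshold of 0.01 and 0 with the background index as a covariate, where the median difference was -0.32 against -0.21. It lay between 7 and 14 when single arrays were left out (7 without young replicate 3, 14 without old replicate 1), and the median between -0.26 and -0.16. The count of higher genes, 0, was 1 with the most variable probe set and stayed 0 under all other settings and thresholds. A further quantile normalization gave 16 lower genes, and the replicate block gave 11, although same-numbered arrays did not all deviate together (correlations of 0.29, 0.05, -0.04 and 0.22) and the labels do not say what the number marks. All 11 called genes kept a negative difference under the 17 settings, and 6 of them (Pdia5, Erp29, Fkbp7, Serpinh1, Txndc5 and Ppib) lost the call only with the covariate. The covariate moved the difference by more than 1.5 times, or turned its sign, for 1 of the 11 called genes (Herpud1) and for 19 of the 25 not called, among them 12 of the 13 chaperones, whose median was -0.24 with it and -0.08 without. The sign changed under some setting for 8 genes, none called. The index, of control probe sets rich in G and C, did not overlap between ages. The index and age therefore cannot be told apart in these arrays, and the cause of the lost calls was not tested.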
